A study of Caenorhabditis elegans with 12 samples.

Results

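BAG neurons, the ciliated head neurons of *C. elegans* that sense CO2, carry 3 guanylyl cyclases with known roles in gas sensing: the CO2 receptor *gcy-9* and the O2-linked soluble cyclases *gcy-31* and *gcy-33*. The values below concern the remaining guanylyl cyclase genes, most of which are known from other sensory neurons. They were chosen by name: every gene whose symbol starts with *gcy-* except those 3, plus *odr-1* and *daf-11*, which gave 31 of 46766 annotated genes. By known role or site, 5 were soluble cyclases, 4 were receptors of the thermosensory AFD neurons, 10 were receptors of the salt-sensing ASE neurons, 2 were the AWC and AWB transduction cyclases *odr-1* and *daf-11*, and 10 were other receptor-type cyclases.

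RNA came from BAG neurons sorted by fluorescence from day 1 adults of 2 genotypes grown at 20°C. Controls had the genotype *npr-1(ad609)*; *ynIs64*, and the mutants had *arcp-1(db1082)* in addition, so both lacked function of the neuropeptide receptor NPR-1 and both carried the BAG reporter *flp-17p::gfp* (*ynIs64*). The *db1082* allele puts a premature stop codon in *arcp-1*, which encodes an ankyrin repeat protein. Each genotype was 1 strain with 6 biological replicates of about 4000 sorted events, and the comparison between them asks which transcripts in BAG differ when ARCP-1 is lost.

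Guanylyl cyclases make cGMP from GTP. In many *C. elegans* sensory neurons, receptor-type cyclases span the membrane of the sensory cilium and respond to temperature, ions or odours, whereas soluble cyclases bind heme and report O2, and the cGMP that they make opens cyclic nucleotide-gated channels such as TAX-2/TAX-4. Phosphodiesterases degrade cGMP, and cGMP-dependent protein kinases carry its slower effects.

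The 12 libraries held 374550 to 8683395 reads in genes, and 4 of them had under 1000000 (*arcp-1* mutant replicates 3 and 4, control replicates 1 and 5). The mean log2 level of 6 BAG markers (*flp-17*, *flp-13*, *ets-5*, *gcy-9*, *gcy-31* and *gcy-33*) ranged from 8.50 to 9.95 in controls and from 7.97 to 10.21 in *arcp-1* mutants; *arcp-1* mutant replicate 1 was lowest and control replicate 1 next lowest. The targeted gene *arcp-1* (F34D10.6 in the files) had 3288 to 12360 normalized counts in controls and 704 to 4277 in mutants, a log2 fold change of −1.76 (adjusted p = 0.0308, limma). Markers of other tissues were also read: the summed TPM of 3 body wall muscle markers was 2017 to 10364 in controls and 2461 to 10248 in mutants. In bulk RNA from sorted cells, fewer cells of a type and less RNA per cell cannot be told apart, and a transcript read at a low level may come from BAG or from other sorted material, whose part was not tested.

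Most of the summed level of the 31 genes came from 4 of them. The receptor-type cyclase *gcy-12*, known for a role in body size, was the most abundant, at 111 ± 22.7 TPM (transcripts in 1000000, a level per transcript length; SD, n = 6) in controls and 111 ± 25.1 in *arcp-1* mutants. *gcy-28*, a receptor-type cyclase that acts in AWC and AIA neurons in learned behaviours, was at 86.2 ± 18.6 TPM in controls and 82.7 ± 24.1 in mutants. The soluble cyclase *gcy-37*, known from the O2-sensing URX, AQR and PQR neurons, was at 85.2 ± 24.3 TPM in controls and 63.9 ± 29.3 in mutants. *gcy-19*, a receptor-type cyclase known from IL2 neurons, followed at 19.3 ± 6.66 TPM in controls and 20.0 ± 5.33 in mutants. The first 3 genes together made up 81.2% of the summed mean TPM of the 31, the 4 together 87.1%, and the other 27 genes 12.9%.

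**Figure D1:**
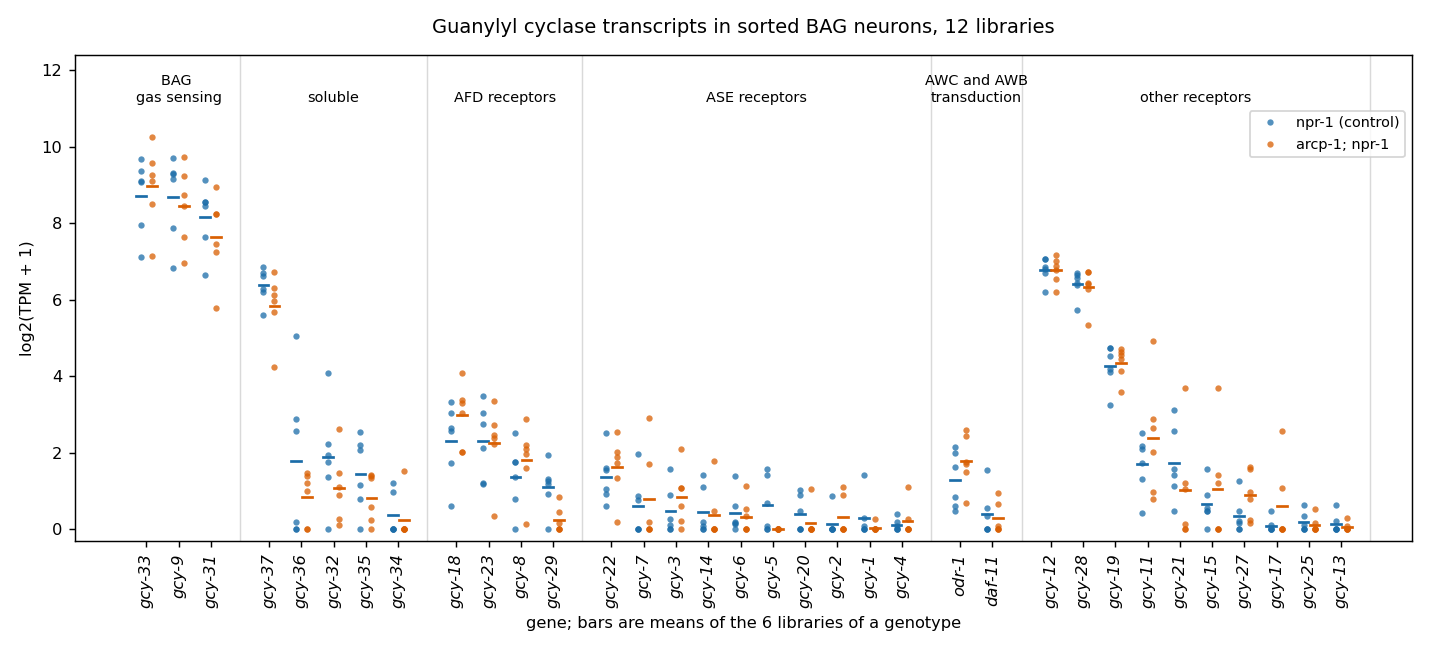
Level of the 3 BAG gas-sensing cyclases and of the 31 other guanylyl cyclases as log2(TPM + 1), grouped by role; each point is a library (blue, *npr-1* controls; orange, *arcp-1; npr-1* mutants) and each bar the mean of 6 libraries. The means of *gcy-12*, *gcy-28*, *gcy-37* and *gcy-19* stand above those of the other members and below those of the gas-sensing cyclases; in single libraries, *gcy-36*, *gcy-32* and *gcy-18* exceeded *gcy-19* in control replicate 1 and *gcy-11* did so in mutant replicate 6.

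The order of these levels held within libraries to different degrees. The gas-sensing cyclases were higher: *gcy-9* and *gcy-33* exceeded *gcy-12* in TPM in 12 of 12 libraries, with median ratios of 3.97 and 5.18, and *gcy-31* did so in 11 of 12, the exception being *arcp-1* mutant replicate 1. *gcy-12* exceeded *gcy-28* in 12 of 12 libraries, by a ratio of 1.04 to 1.84. *gcy-28* and *gcy-37* could not be ordered, since *gcy-28* was higher in 7 of 12 libraries. *gcy-37* exceeded *gcy-19* in 12 of 12, by a ratio of 1.62 to 5.94. Below *gcy-19*, the next means were *gcy-18* at 6.40, *gcy-11* at 5.11, *gcy-23* at 4.74 and *gcy-36* at 4.09 TPM over all libraries, and neighbours in this lower range did not differ beyond the spread between libraries. The coefficient of variation of the normalized counts over all 12 libraries was 17.8% to 33.9% for the 4 abundant genes and 65.4% to 260% for the other 27.

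The 4 abundant genes have separate loci, with no overlapping exon of another gene on the reference annotation apart from 24 bases that *gcy-28* shares with *mrpl-19* on the opposite strand. On WS255, *gcy-12* lies on chromosome II (5312046 to 5319234, plus strand), *gcy-37* on chromosome IV (2150650 to 2159162, minus strand), *gcy-19* on chromosome II (3250985 to 3259354, minus strand) and *gcy-28* on chromosome I, plus strand. Their longest coding sequences have 1678, 707, 1186 and 1275 codons, in the same order; the shorter one of *gcy-37* is near those of the other 4 soluble members, at 674 to 687 codons.

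*gcy-12* had 841, 952, 983, 1152, 1112 and 914 normalized counts in control replicates 1 to 6 and 668, 1056, 851, 998, 1118 and 1358 in *arcp-1* mutant replicates 1 to 6. Normalized counts are reads divided by a size factor for each library and are used for all comparisons between genotypes. *gcy-28* had 707, 991, 1048, 959, 807 and 898 in the controls and 427, 896, 826, 1127, 1072 and 964 in the mutants. The genotypes overlapped for both genes, and the lowest value of each was in mutant replicate 1. The log2 fold change, mutants over controls, was 0.00 for *gcy-12* (95% interval −0.39 to 0.38) and −0.08 for *gcy-28* (−0.55 to 0.39), on the log2(normalized count + 1) scale with limma.

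*gcy-19* had 65.0, 98.2, 146, 93.1, 123 and 150.3 normalized counts in the controls and 66.8, 98.5, 154, 135, 138 and 132 in the mutants. The 2 ranges nearly coincided, with replicate 1 the lowest in each genotype, and the log2 fold change was 0.10 (95% interval −0.44 to 0.65). The 2 IL2 markers summed to 2.89 to 62.0 TPM in controls and 0 to 30.9 TPM in mutants. Of these, *cil-7* was at 14.1 TPM and *klp-6*, an IL2 kinesin, at 0.689 TPM on average. The part of IL2 material in the *gcy-19* reads was not tested.

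**Figure D2:**
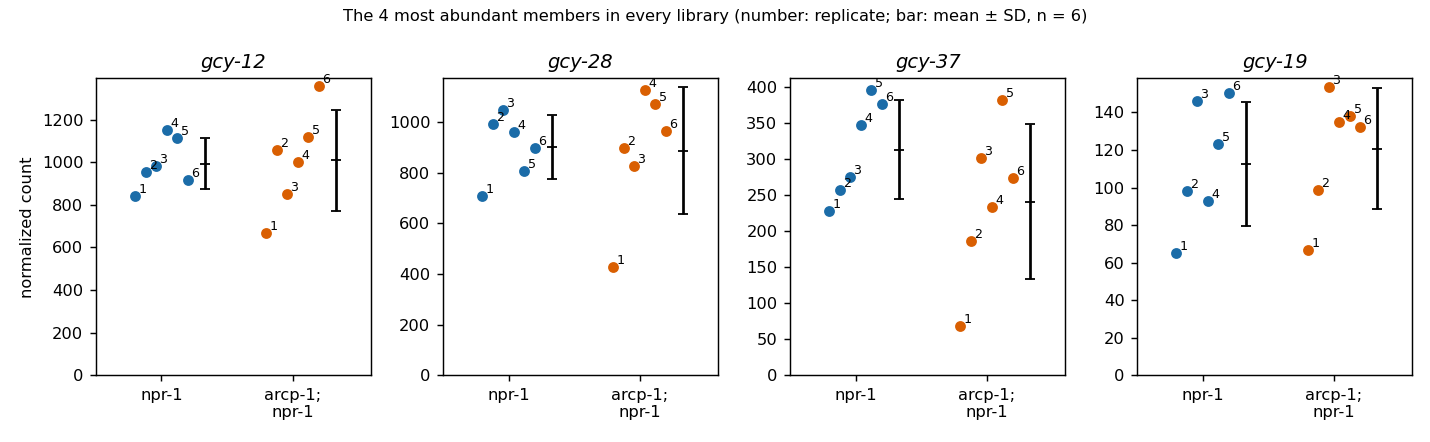
Normalized counts of the 4 most abundant members in every library, numbered by replicate; bars are mean ± SD (n = 6) and each vertical axis starts at 0. Replicate 1 is the lowest value of the *arcp-1* mutants for all 4 genes, and the genotypes overlap for each gene.

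Of the 5 soluble cyclases, *gcy-37* was the abundant one. It had 227, 257, 275, 347, 395 and 376 normalized counts in control replicates 1 to 6 and 67.9, 187, 301, 233, 381 and 273 in mutant replicates 1 to 6. The controls were on average higher and the genotypes overlapped, with the 2 lowest values in mutants. Its log2 fold change was −0.52 (SE 0.33, 95% interval −1.22 to 0.18; adjusted p = 0.661 with limma; two-sided exact permutation p = 0.188, 6 against 6). Without mutant replicate 1 the log2 fold change was −0.20.

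The other soluble cyclases, which are known from the same URX, AQR and PQR neurons, were read unevenly. *gcy-36* had 155, 0.479, 0, 17.8, 0 and 23.4 normalized counts in the controls and 5.00, 6.62, 0, 6.13, 0 and 4.03 in the mutants. *gcy-32* had 72.2, 9.58, 5.24, 7.94, 0 and 12.9 in the controls and 0.294, 0.735, 6.40, 18.4, 3.98 and 3.22 in the mutants. Control replicate 1 held the highest value of both and 71.0% and 51.2% of their normalized counts summed over the 12 libraries. *gcy-35* had 3.61, 0, 4.43, 11.7, 12.7 and 18 in the controls and 6.47, 0.735, 6.40, 0, 5.69 and 2.01 in the mutants, and *gcy-34*, below the filter on low counts, had reads in 3 libraries, 9 to 12 in each. *gcy-37* exceeded the summed TPM of these 4 genes in 11 of 12 libraries, with a median ratio of 17.7; the exception was control replicate 1, at a ratio of 0.970.

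The same library stood apart for a marker of other neurons. *flp-8*, a neuropeptide gene that marks URX, was at 3077 TPM in control replicate 1, at 428 and 730.5 in control replicates 4 and 6, and at 1.27 to 216 TPM in the mutants. Summed over the 3 URX, AQR and PQR markers, of which *ahr-1* was at 0.246 TPM on average, the range was 31.9 to 3084 TPM in controls and 4.01 to 229 in mutants. In control replicate 1, where *flp-8*, *gcy-32* and *gcy-36* were all at their highest, *gcy-37* was at its lowest control value. The cell type that gave the *gcy-37* reads was not tested.

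**Figure D3:**
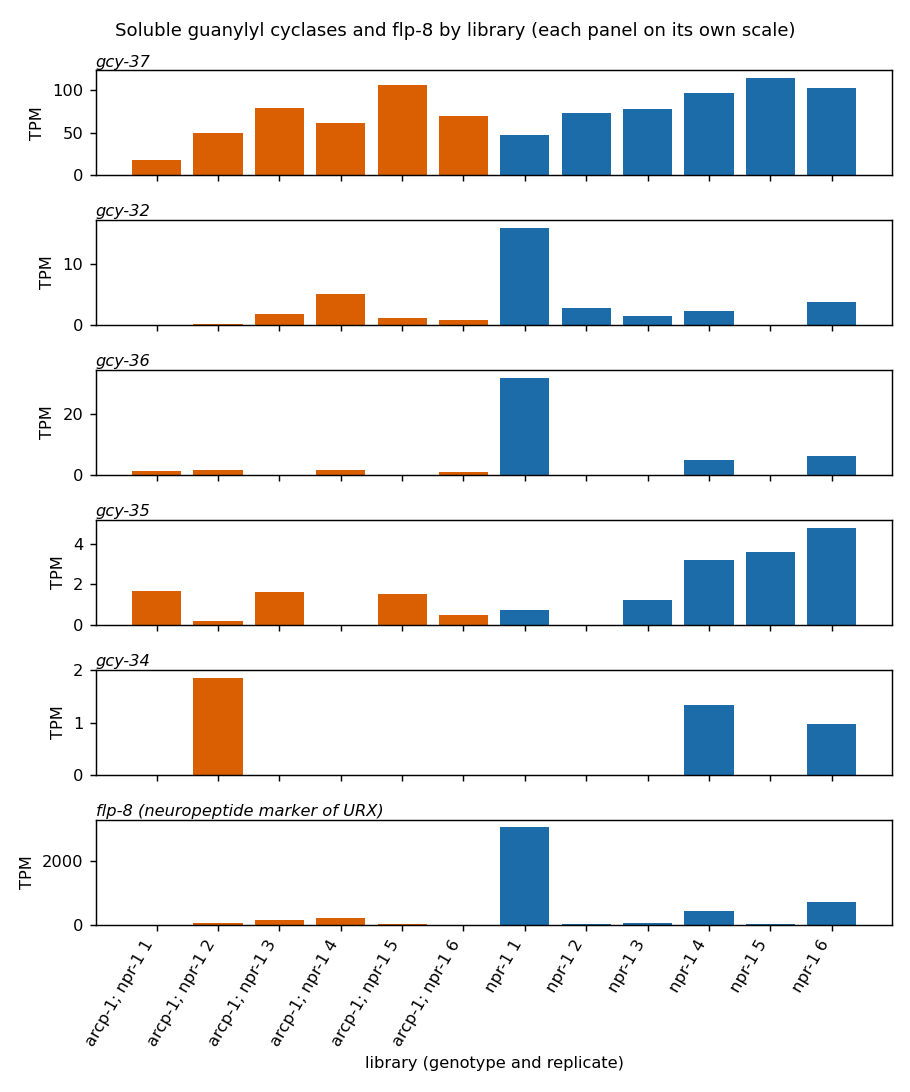
TPM of the 5 soluble cyclases and of the URX marker *flp-8* in each of the 12 libraries (orange, *arcp-1; npr-1*; blue, *npr-1*; replicate number after the genotype); each panel has its own scale starting at 0. *gcy-32*, *gcy-36* and *flp-8* are highest in *npr-1* replicate 1, whereas *gcy-37* is there at its lowest value among the controls. In *npr-1* replicates 6 and 4, next highest for *gcy-36* and *flp-8*, *gcy-37* is at 103 and 97.1 TPM.

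The AFD receptors *gcy-8*, *gcy-18* and *gcy-23* are thermoreceptors, and *gcy-29* is also known from AFD. *gcy-18* had 68.6, 27.8, 29.4, 40.5, 12.7 and 3.05 normalized counts in the controls and 18.5, 42.7, 96.0, 18.4, 53.5 and 55.6 in the mutants. *gcy-23* had 39.7, 36.9, 6.85, 52.6, 17 and 6.79 in the controls and 1.47, 19.9, 51.2, 24.5, 22.2 and 32.2 in the mutants. *gcy-8* had 0, 13.4, 4.03, 26.5, 8.49 and 13.9 in the controls and 21.8, 19.1, 38.4, 12.3, 0.569 and 18.1 in the mutants. All 3 varied widely between libraries of a genotype, and the genotypes overlapped. Of the 5 AFD markers, summing to 12.6 to 85.2 TPM in controls and 32.1 to 60.8 in mutants, *dac-1* gave most; the AFD selector gene *ttx-1* was at 4.57 TPM on average.

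*gcy-29* came closest to a difference between the genotypes. It had 0, 6.71, 6.04, 13.6, 4.25 and 7.46 normalized counts in the controls and 0.588, 0, 0, 0, 3.98 and 2.01 in the mutants. Of the 6 controls, 5 were above every mutant, while control replicate 1 had no read. These values rest on 88 reads in controls and 14 in mutants. The 4.25 of control replicate 5 was 1 read, just above the 3.98 of mutant replicate 5, which was 7 reads. In mutant replicates 3 and 4, both at 0, 1 read is worth 6.40 and 6.13 normalized counts. A level like that of the controls could therefore be missed in those 2 libraries. The log2 fold change was −1.75 (SE 0.70; adjusted p = 0.355 with limma, 0.0918 to 0.569 over the alternatives; two-sided exact permutation p = 0.0325, 6 against 6), so the difference did not pass the threshold.

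ASE receptors respond to salts and other water-soluble attractants, several of them in the left or the right ASE neuron alone. Only 2 of the 10 passed the filter on low counts, 1 CPM in 6 libraries. In each of the 4 shallow libraries 1 read is enough to reach 1 CPM, so passing does not rank genes by reads. *gcy-3* passed with 71 reads, whereas *gcy-7*, with 113, did not. *gcy-22*, known from the right ASE neuron, had 3.61, 10.1, 5.24, 9.46, 4.25 and 24.1 normalized counts in the controls and 14.4, 0.735, 25.6, 12.3, 15.4 and 8.46 in the mutants. *gcy-3* had 0, 0.479, 10.5, 1.13, 0 and 4.75 in the controls and 0.882, 2.94, 6.40, 18.4, 0 and 6.45 in the mutants. The genotypes overlapped for both. The other 8 (*gcy-1*, *gcy-2*, *gcy-4*, *gcy-5*, *gcy-6*, *gcy-7*, *gcy-14* and *gcy-20*) had 10 to 113 reads over all libraries. The 6 ASE markers summed to 34.4 to 70.3 TPM in controls and 21.0 to 59.0 TPM in mutants. Among them, *die-1* was at 16.7 TPM on average, *flp-20* at 2.09, *fozi-1* at 1.32, the ASE selector gene *che-1* at 0.851 and *cog-1* at 0.181 TPM. In control replicate 1, which held the highest sum, *lim-6* gave the largest part, with *die-1* at 12.6 TPM. The part of ASE material in the reads of these receptors was not tested.

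Reads of these rare receptors came in bursts. *gcy-7* had 60 of its 113 reads in mutant replicate 5 and 38 in control replicate 3, and *gcy-14* 23 of 46 in mutant replicate 5. *gcy-5* had 42 reads in controls, 31 of them in control replicate 6, and 0 of 23771510 reads in the mutants, which allows a level of up to 0.126 CPM (reads in 1000000; 3 reads over the group, counting error only). Its exons share 458 bases with *idpp-8* on the opposite strand, which the counting without strand cannot separate. *gcy-1*, *gcy-2* and *gcy-3* lie next to each other on chromosome II, as do *gcy-4* and *gcy-5*, and reads shared between such related copies are uncertain; *gcy-2*, which the reference annotates as a pseudogene, had 16 of its 18 reads in mutant replicate 1.

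The cyclases *odr-1* and *daf-11* carry odour signals in AWC and AWB. *odr-1* had 3.61, 1.92, 4.03, 15.1, 17 and 10.9 normalized counts in the controls and 3.24, 9.56, 12.8, 12.3, 22.8 and 27.8 in the mutants, with the genotypes overlapping. It was at 2.24 TPM on average, from 1 to 69 reads per library. *daf-11*, below the filter, had reads in 6 libraries and 30 of its 68 reads in control replicate 4. The 5 AWC markers summed to 0 to 2.27 TPM in controls and 0 to 4.17 TPM in mutants, and *str-199* was at 0 in every library. The 4 AWB markers summed to 1.20 to 28 TPM in controls and 0 to 10.8 TPM in mutants. For the sensory neurons ASI, ASJ and ASK, 8 markers summed to 18.1 to 365 TPM in controls and 16.3 to 329 TPM in mutants. Of these 8, 4 averaged under 1 TPM. The part of other neurons in the *odr-1* reads was not tested.

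Of the 10 other receptors, *gcy-11* and *gcy-21* passed the filter besides *gcy-12*, *gcy-19* and *gcy-28*, which makes 5. *gcy-11* had 36.1, 1.92, 8.46, 20.1, 12.7 and 19 normalized counts in the controls and 5.88, 4.41, 38.4, 18.4, 30.2 and 182 in the mutants. *gcy-21*, known from ASG neurons, had 54.1, 6.23, 2.01, 25.7, 8.49 and 10.5 in the controls and 0.588, 5.88, 0, 0, 6.83 and 68.1 in the mutants. Both were highest in mutant replicate 6, which held 48.2% and 36.1% of their normalized counts over all libraries. That library also held 168 of the 255 reads of *gcy-15*, likewise known from ASG neurons, whereas *gcy-17* had 45 of 52 reads in mutant replicate 5. *gcy-27*, *gcy-25* and *gcy-13* had 32, 10 and 13 reads in all.

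Between the genotypes, 0 of the 16 members past the filter changed by limma (Benjamini-Hochberg adjusted p threshold 0.05), against 1.66% of all 12096 genes tested, and 0 had genotypes that did not overlap, against 1.95%. At an unadjusted p under 0.05 there was 1 member (*gcy-29*), against 10.4% of all genes. edgeR and DESeq2 on the recovered reads also called 0, with 3 members (*gcy-29*, *gcy-32* and *gcy-36*) and 2 (*gcy-29* and *gcy-32*) at an unadjusted p under 0.05, against 10.8% and 11.6% of all genes. The fitted log2 fold change was above 0 for 7 of the 16, and their median was −0.04, beside −0.02 over all genes tested. The intervals set how much can be said: for *gcy-12*, *gcy-28* and *gcy-19* they ran no further than −0.55 to 0.65, while for *gcy-36* the interval ran from −3.48 to 1.47 and for *gcy-21* from −3.64 to 0.57. The last 2 each had 1 library far above the others of its genotype, and their intervals hold differences of several-fold.

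**Figure D4:**
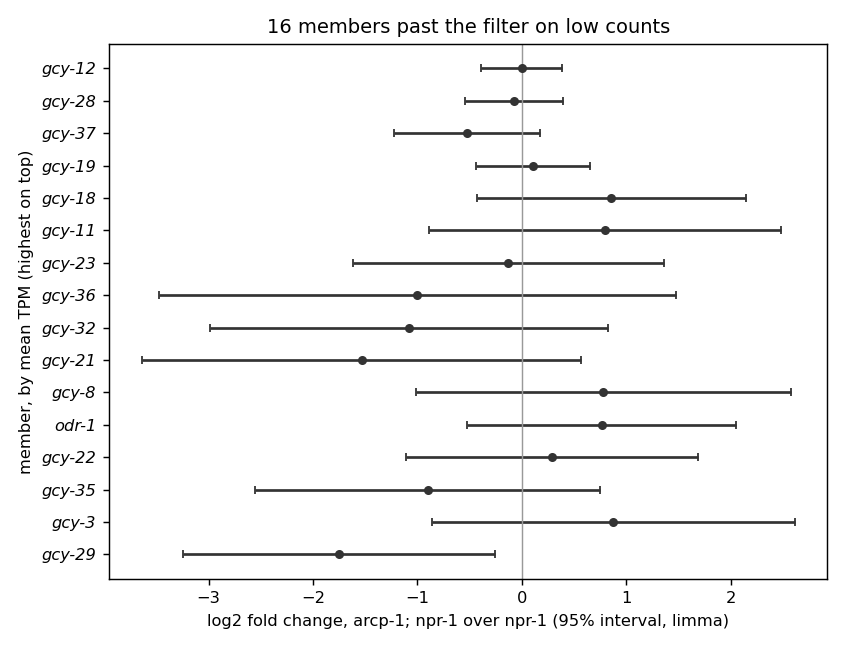
Log2 fold change of the 16 members past the filter on low counts, *arcp-1; npr-1* mutants over *npr-1* controls, with 95% intervals from limma, ordered by mean TPM. The intervals are narrowest for the 4 most abundant genes, and *gcy-29* alone has an interval that leaves out 0 before adjustment (−3.25 to −0.26).

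How closely each member followed the BAG markers between libraries was measured as the correlation of its log2 level with the mean of the 6 markers. The mean of each genotype was subtracted first (12 libraries, 100000 permutations, adjusted over all genes tested). Of the 16, 3 passed with a positive r, against 5.49% of all genes, and 13 had an r above 0, against 46.6% of all genes; the median r was 0.35 for the members and −0.04 for all genes. *gcy-37* followed the markers most closely (r = 0.94, rho = 0.97, adjusted permutation p = 0.00367), above 99.7% of the genes tested and near *gcy-9*, *gcy-31* and *gcy-33*, which are themselves among the markers (r = 0.94 to 0.98). Within the mutants its r was 0.99 (exact permutation p = 0.00139, n = 6) and within the controls 0.89 (exact permutation p = 0.00694, n = 6). Without the 2 libraries farthest from the median, replicate 1 of each genotype, r was 0.87, and with the 3 markers that are not guanylyl cyclases it was 0.90.

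*gcy-19* also followed the BAG markers (r = 0.90, rho = 0.73, adjusted permutation p = 0.0104), with r = 0.71 without the 2 farthest libraries and r = 0.97 and 0.84 within mutants and controls. *odr-1*, at far fewer reads, had r = 0.82 (rho = 0.79, adjusted permutation p = 0.0165) and r = 0.76 without the 2 farthest libraries; with the 3 markers that are not guanylyl cyclases its r was 0.70 and it did not pass (adjusted permutation p = 0.0796). The calls of *gcy-19* and *odr-1*, but not that of *gcy-37*, were lost without mutant replicate 1, which left 1 member past the threshold (adjusted permutation p = 0.0515 for *gcy-19* and 0.105 for *odr-1*). *gcy-28* (r = 0.76, rho = 0.34, adjusted permutation p = 0.0753) and *gcy-12* (r = 0.70, rho = 0.51, adjusted permutation p = 0.0802) did not pass, and their r fell to −0.15 and 0.16 without the 2 farthest libraries, so that what relation they had rests on those libraries. *gcy-36* had r = −0.44 and *gcy-32* r = −0.04, and neither passed.

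**Figure D5:**
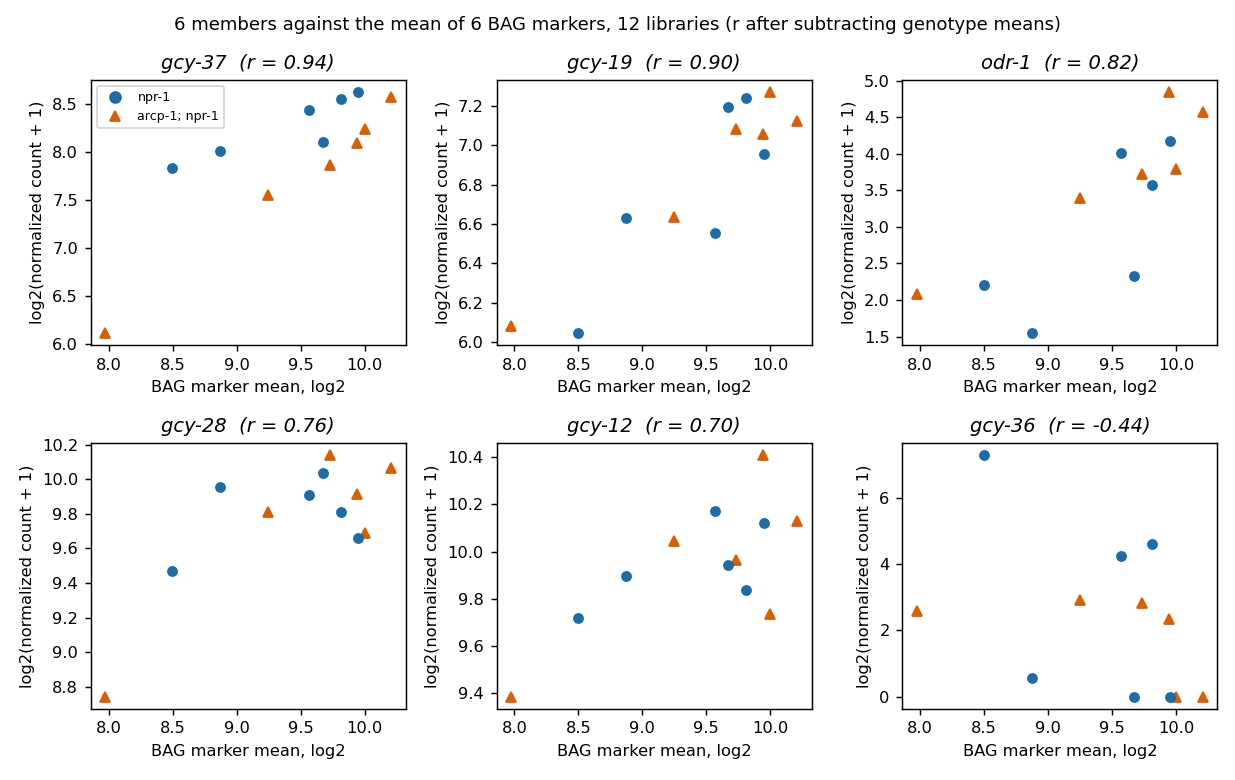
Log2(normalized count + 1) of 6 members against the mean log2 level of 6 BAG markers in the 12 libraries (circles, *npr-1* controls; triangles, *arcp-1; npr-1* mutants); r is computed after subtracting genotype means. *gcy-37* rises with the markers within each genotype, whereas the points of *gcy-28* and *gcy-12* above the 2 libraries of lowest marker level show no clear slope.

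Because *gcy-37* followed the BAG markers so closely, the genotypes were also compared with the marker mean as a covariate, an alternative added after seeing the data. In that fit *gcy-37* was the 1 member of 16 called, lower in the mutants (log2 fold change −0.63, SE 0.16, adjusted p = 0.0400 with limma), where 0.959% of all genes were called lower. The gas-sensing *gcy-31* was also called lower in the same fit (−0.66, adjusted p = 0.0236 with limma). *gcy-9* (−0.38, adjusted p = 0.437 with limma) and *gcy-33* (0.11, adjusted p = 0.822 with limma) did not pass. These 3 genes are among the 6 markers whose mean is the covariate, so their fold changes in this fit are tied to it. They therefore give no independent comparison for the call of *gcy-37*. The call was held on TPM (−0.64, adjusted p = 0.0378) and when mutant replicate 5 or control replicate 3 was left out, but not when any of the other 10 libraries was; over these 12 fits the log2 fold change ran from −0.71 to −0.47. It also turned on the markers used: it was −0.95 (adjusted p = 0.0155 with limma) with *flp-17*, *flp-13* and *ets-5* alone, whose mean was 0.39 log2 units higher in mutants than in controls, and −0.43 (adjusted p = 0.295 with limma) with *gcy-9*, *gcy-31* and *gcy-33* alone, whose mean was 0.15 lower.

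Other genes of the cGMP pathway, listed with the members, did include ones that changed. Of 14 genes for cyclic nucleotide-gated channel subunits, phosphodiesterases and cGMP-dependent protein kinases, 13 passed the filter; 1 rose and 1 fell in the mutants by limma, against 1.33% and 0.331% of all genes. The channel subunit gene *cng-3* had 3.61, 0.958, 0, 0.378, 0 and 2.71 normalized counts in the controls and 3.82, 39.7, 51.2, 116, 72.8 and 61.6 in the mutants. Its log2 fold change was 4.47 (adjusted p = 0.00258 with limma), and every mutant was above every control. The closest pair, 3.82 in mutant replicate 1 and 3.61 in control replicate 1, stood for 13 reads and 1 read. That margin is within 1 read of the control library. *pde-3*, which encodes a phosphodiesterase, had 67.9 to 139 in the controls and 26.2 to 70.1 in the mutants; the highest mutant lay just above the lowest control (−1.44, adjusted p = 0.0105 with limma). The 2 with the highest mean TPM over all libraries were *pde-1*, a phosphodiesterase gene, at 919 TPM with a log2 fold change of 0.15 (adjusted p = 0.920), and *pde-6*, another phosphodiesterase gene, at 188 TPM with −0.46 (adjusted p = 0.681). The channel subunit gene *cng-1*, named after its values were seen, was at 274 TPM in controls and 89.0 TPM in mutants, above *pde-6* in the controls (213 TPM). It had 379 to 1737 normalized counts in the controls and 114 to 557 in the mutants (log2 fold change −1.56, adjusted p = 0.0635 with limma; exact permutation p = 0.0108, 6 against 6), and it was called lower with the BAG marker mean as a covariate (−1.69, adjusted p = 5.59e-05 with limma).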

How the data were processed

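Smart-seq2 libraries of 12 sorted BAG samples were analysed, 6 of each genotype. The authors used Bowtie2 to discard ribosomal reads, Trim Galore for trimming, STAR for mapping to WS255 (mapping quality of at least 20) and HTSeq for counting per gene without regard to strand. The authors deposited normalized counts, a signal equal to reads divided by a DESeq2 size factor, for 22542 genes, and TPM values for 46766 genes. The authors' comparison table, which also holds mean signal, fold changes, p-values and q-values, gave only gene symbols and loci here. No read was tagged with a molecular identifier, so the limit given for 0 reads covers counting error only; the intervals of fold changes come from limma and reflect the spread between libraries.

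Reads were recovered from the smallest step of each library (100% of values within 0.01 of a whole read). limma 3.58.1 (lmFit, eBayes with trend, R 4.3.3) was fitted to log2(normalized count + 1) of the 12096 genes that reached 1 CPM in 6 libraries, with Benjamini-Hochberg adjustment and a threshold of 0.05. Single members were compared by a two-sided exact permutation test, and correlations by 100000 permutations, adjusted over all genes tested rather than over the members as first planned. Libraries were treated as independent. Alternatives were pseudocounts of 0.1 and 10, no filter, TPM, edgeR 4.0.16, DESeq2 1.42.0, a replicate block, 3 BAG markers that are not cyclases and leaving out each library. The models were tested on simulated data. Overlapping exons came from the Ensembl annotation of the same assembly, WBcel235. No sequence is shown.

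The members, roles, marker lists and cGMP pathway list were chosen with earlier results of these data known. Members past the filter were named with every library's value, those below it with reads, and pathway genes if called or among the 2 highest in TPM.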

Additional observations from a re-analysis of the deposited data

Results flagged for a closer look

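In 7 of 32 sets of 6 libraries (16 members in each genotype), 1 library lay far from the other 5 by Dixon's test at the 95% level. That level, 1 in 20 by chance, is for normally distributed values, whereas the test was run on normalized counts without logs. Low counts are skewed towards high values, so the number of sets flagged cannot be set against that rate. In control replicate 1, *gcy-36* had 155 normalized counts with the next control at 23.4, and *gcy-32* had 72.2 with the next at 12.9. In mutant replicate 6, *gcy-11* had 182 with the next mutant at 38.4, and *gcy-21* had 68.1 with the next at 6.83. In mutant replicate 4, a library of 396502 reads in which 1 read is worth 6.13 normalized counts, *gcy-32* and *gcy-3* each had 18.4, or 3 reads. In control replicate 6, *gcy-22* had 24.1 with the next control at 10.1. Each of the 7 was the highest value of its set, none concerned *gcy-12*, *gcy-28*, *gcy-37* or *gcy-19*, and their cause was not tested.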

How the results depend on the processing

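Under the 7 alternative settings and the 12 fits without a library, 0 members passed the threshold between the genotypes, as without the 4 libraries under 1000000 reads; with the BAG marker mean as a covariate the number was 1. The replicate block also called 0 members and left the log2 fold change of *gcy-37* at −0.52 (adjusted p = 0.309 with limma). Same-numbered libraries of the 2 genotypes correlated at 0.0385 to 0.318, and 2 of 6 numbers matched best with themselves. These values cannot settle whether replicate numbers pair the samples. Among all genes tested, the number called was 201 with limma, 291 with the replicate block and 404 with DESeq2. It was 110 without the 4 shallow libraries and 124 to 329 without 1 library. The number of members that followed the BAG markers was 3, 4 on TPM (with *gcy-12*), 2 with the markers that are not cyclases (without *odr-1*), and 1 to 4 without a library. Of all genes tested, 1094 correlated with the markers in either direction, 664 of them with a positive r. The number in either direction was 253 with the 3 markers that are not cyclases and 267 without mutant replicate 1.

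Fold changes that were not called turned direction in places. For *gcy-12* the log2 fold change was 0.0367 with edgeR, 0.0266 with DESeq2 and 0.0302 without the 4 shallow libraries, and −0.10 to 0.11 without a library. Without the 4 shallow libraries it was −0.28 for *gcy-8*, −0.48 for *gcy-3*, −0.53 for *gcy-22* and −0.18 for *gcy-19*, and *gcy-21* was at 0.0126 with edgeR. Without a library, *gcy-23* ran from −0.42 to 0.46, *gcy-19* from −0.0407 to 0.264 and *gcy-28* from −0.16 to 0.12. The cause was not tested. Depth limits the rarer members most: in the shallowest library 1 read is 2.67 CPM (reads in 1000000), and 0 reads there allow up to 8.01 CPM.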
